A study of Mus musculus with 10 samples.

Results

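Neutrophil marker genes, 10 in number, were followed in diabetic mouse wounds: Csf3r, Cxcr2, Clec4d, Clec4e, Hdc, Trem1, Stfa1, Ly6g, Retnlg and Ngp. They were taken by name from the platform annotation, and each is represented by its brightest feature assigned to a single gene. All 10 were found, with 1 feature each, among 30786 named genes on the arrays. The samples were wound-edge skin of male db/db mice, BKS(D)-Leprdb/JOrlRj by the labels, which carry a leptin receptor mutation and are obese and diabetic. The miR-132 group was 5 mice whose wounds were given miR-132 mimic, and the control group was 5 mice given control mimic. Per the labels, mice aged 11 weeks were caged singly for a week before 2 full-thickness punch wounds of 4 mm were made on the back. A dose of 0.5 nmol mimic in 100 µl went into the margin of every wound through 4 injections directly after wounding, and skin was collected 6 days later. All 10 mice thus shared the db/db genotype, the wounding, the transfection reagent and the pain relief, and no group without diabetes or without a mimic was analysed here. Total RNA was read on Affymetrix Clariom D arrays, which report 1 signal per transcript cluster. Values are log2 signals, so a difference of 1 is a 2-fold change.

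Neutrophils are the first leukocytes to enter a wound. They are released from bone marrow under granulocyte colony-stimulating factor, which acts through Csf3r, and follow CXC chemokines through Cxcr2. In tissue they sense microbes and damaged cells with receptors such as Clec4d, Clec4e and Trem1. Their granule proteins are made mostly in the marrow, so that the messenger RNAs of granule proteins are low in mature cells that have reached a tissue. In diabetic wounds, neutrophils are known to persist longer than in healthy skin.

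A mimic is a short synthetic RNA that acts as a mature microRNA and lowers messenger RNAs that pair with its seed. The labels do not say which arm of miR-132 was supplied, so both mature mouse sequences from RefSeq (GRCm38.p6) are shown, 5′ to 3′, with the seed, bases 2 to 8, in capitals. The first lies at chr11:75173723-75173744 and the second at chr11:75173686-75173707, both on the plus strand.
mmu-miR-132-3p: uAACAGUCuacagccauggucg
mmu-miR-132-5p: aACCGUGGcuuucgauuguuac

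The arrays were similar in overall level. The range between the 10th and 90th percentile of an array's signals was 4.41 to 4.92 in miR-132 wounds and 4.81 to 5.03 in control wounds. Spike-in controls added at hybridisation averaged 10.80 ± 0.19 in miR-132 wounds and 10.54 ± 0.07 in control wounds (SD, n = 5 each). No 2 arrays held identical values. Across the 10 arrays the mean of the neutrophil genes had a Pearson r of 0.17 with that range and of -0.15 with the spike-in level.

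The label of the gene set was only partly borne out by the data. The receptors other than Ly6g, with Hdc and Retnlg, had means over all arrays between 7.66 for Retnlg and 10.96 for Clec4d. The 5222 negative control features of the array reached 8.05 at their 95th percentile, and between 93.5% of them (Retnlg) and 98.6% (Clec4d) were dimmer than these 7 genes, with Csf3r at 94.0% and Clec4e at 95.3%. Ngp, the granule protein gene of the set, had a mean of 3.45, below the level of 4.17 that a gene needed to be tested. Ly6g, at 4.58, lay just above that level. Both were dim beside the negative control features, whose median was 4.74: 10.8% of those features were dimmer than Ngp and 44.8% were dimmer than Ly6g. The granule genes Mpo, Elane, Prtn3, Ltf and Olfm4 were also below the level tested. Other granule genes were above it, among them 13 of 15 measured genes of specific and gelatinase granules. These 13 ranged from Cd177, at 4.36 in miR-132 wounds and 4.38 in control wounds, to Lyz2, at 19.79 in miR-132 wounds and 19.77 in control wounds. Stfa1 was at the opposite end, at the upper signal limit of 19.93 on 8 of 10 arrays, where a value is only a lower bound. The set is therefore described here mainly as neutrophil receptors with Hdc and Retnlg, with little measured signal of its granule protein gene Ngp.

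Expression of the neutrophil genes averaged lower in miR-132 wounds than in control wounds, but none passed the test. All 10 genes averaged lower in miR-132 wounds, and so did 53.6% of all tested genes (69.3% with each array centred on its median). Of genes with a mean above 5.66, the third quartile of all features, 63.6% averaged lower. Not all 10 inform on direction: Stfa1 was at the upper limit on all control arrays, so it could not average higher with miR-132. Ngp was too dim to be tested and differed by -0.012, and the median of Ly6g was 0.06 higher with miR-132. Of the 9 that were tested, 0 reached an adjusted p under 0.05 with limma, the smallest adjusted p being 0.656. The same test called 0 of 17657 genes in all, or 0%. At an unadjusted p under 0.05 limma counted 0 of the 9 neutrophil genes, against 8.09% of all genes. The median difference over the 9 was -0.52, beside -0.02 over all genes tested. In 0 of the 10 genes did the values of the groups separate without overlap, which 0.929% of all tested genes did. In bulk tissue, the number of neutrophils, the amount of these RNAs per neutrophil and RNA from other cells cannot be told apart.

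**Figure D1:**
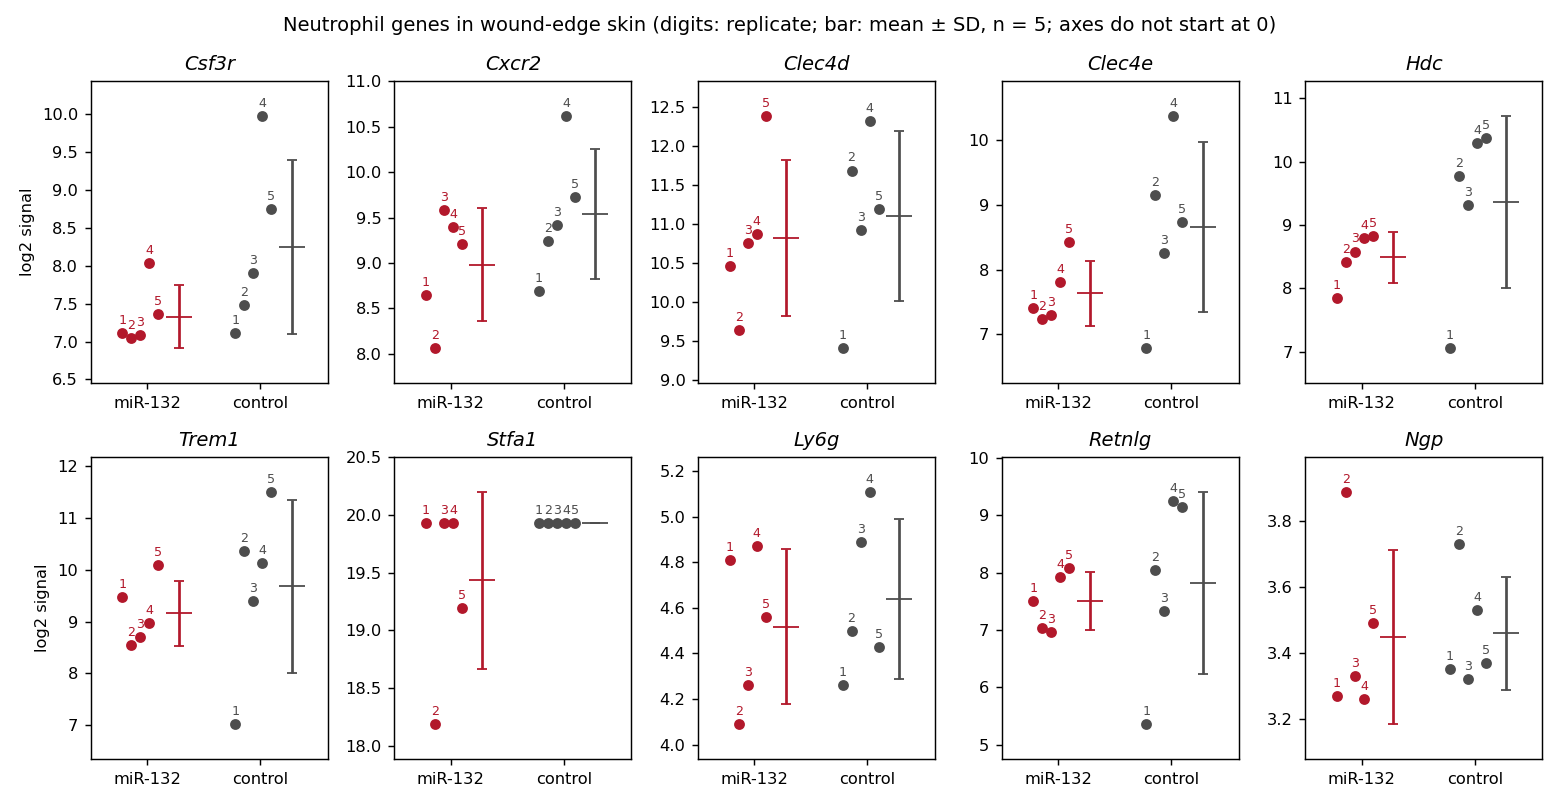
Log2 signal (y axis) of each of the 10 neutrophil genes on each array, miR-132 wounds in red on the left and control wounds in grey on the right of each panel. Points are single mice labelled by replicate, bars are mean ± SD (n = 5), and axes differ between panels. Control replicate 4 or 5 was highest for 7 of the 8 genes that were tested and never at the upper limit, and control replicate 1 was lowest for 5 of them.

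Csf3r encodes the receptor for granulocyte colony-stimulating factor, the main signal for neutrophil production and release. Its signal was 7.11, 7.04, 7.08, 8.03 and 7.36 in miR-132 wounds, against 7.11, 7.48, 7.9, 9.97 and 8.75 in control wounds (replicates 1 to 5 each). Only miR-132 replicate 4 stood out in its group, whereas the controls spread over a 7.26-fold range, so the groups overlapped at the low end. The mean was 7.32 ± 0.41 in miR-132 wounds and 8.24 ± 1.14 in control wounds (SD, n = 5 each), 1.89-fold lower with miR-132. All 5 miR-132 values lay below the control mean. The difference was -0.92 with a standard error (SE) of 0.50, and its 95% interval ran from -2.03 to 0.19 (limma, adjusted p = 0.656).

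Cxcr2 encodes the chemokine receptor that draws neutrophils along gradients of Cxcl1, Cxcl2, Cxcl3 and Cxcl5. It measured 8.65, 8.06, 9.58, 9.4 and 9.21 in miR-132 wounds, against 8.69, 9.24, 9.42, 10.62 and 9.73 in control wounds. The values of miR-132 replicates 3, 4 and 5 lay within the range of the controls, and only control replicates 4 and 5 exceeded every miR-132 value. The means were 8.98 ± 0.62 in miR-132 wounds and 9.54 ± 0.71 in control wounds (SD, n = 5 each). The difference of -0.56 (SE 0.39) had an interval of -1.44 to 0.32 (limma, adjusted p = 0.723).

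Ligands were measured in the same RNA, those of Csf3r and Cxcr2 together with Pglyrp1, a ligand of Trem1, and Sap130, a ligand of Clec4e. Of 7 such genes above the level filter, 6 averaged lower and 1 higher in miR-132 wounds, with 0 at an unadjusted p under 0.05 and a median difference of -0.26, beside 53.6% lower over all genes. Cxcl2, a ligand of Cxcr2, averaged 11.94 ± 1.03 in miR-132 wounds and 12.89 ± 1.73 in control wounds (SD, n = 5 each; difference -0.95, limma adjusted p = 0.783). Csf3, the ligand of Csf3r, was below the level tested. Per array, the mean of the 7 ligand genes followed the mean of the neutrophil genes with an r of 0.88 over 10 arrays.

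Clec4e, also called Mincle, is a C-type lectin receptor for glycolipids of microbes and for Sap130 released from dying cells. Its signal was 7.4, 7.23, 7.29, 7.81 and 8.42 in miR-132 wounds, against 6.78, 9.16, 8.25, 10.38 and 8.74 in control wounds. Control replicates 2, 4 and 5 were above every miR-132 value and control replicate 1 was below every one of them. The means, 7.63 ± 0.50 in miR-132 wounds and 8.66 ± 1.32 in control wounds (SD, n = 5 each), were 2.04-fold apart, the widest gap among the 10 genes. The difference was -1.03 (SE 0.57), with an interval of -2.31 to 0.25 (limma, adjusted p = 0.661).

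Clec4d, the neighbouring gene on chromosome 6, encodes a related lectin that pairs with Clec4e at the cell surface. It measured 10.46, 9.63, 10.75, 10.86 and 12.38 in miR-132 wounds, against 9.4, 11.68, 10.92, 12.32 and 11.19 in control wounds. Here the highest array was miR-132 replicate 5, and the groups covered nearly the same range. The means were 10.82 ± 0.998 in miR-132 wounds and 11.10 ± 1.09 in control wounds (SD, n = 5 each). The difference of -0.29 (SE 0.61) had an interval of -1.64 to 1.07 (limma, adjusted p = 0.925).

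Trem1 encodes a receptor that amplifies inflammatory signalling and binds Pglyrp1. It measured 9.48, 8.55, 8.71, 8.97 and 10.09 in miR-132 wounds, against 7.02, 10.37, 9.39, 10.13 and 11.51 in control wounds. Control replicates 2, 4 and 5 exceeded every miR-132 value, while control replicate 1 was far below all other arrays, so the controls spanned a 22.5-fold range and the miR-132 wounds 2.91-fold. The means were 9.16 ± 0.63 in miR-132 wounds and 9.68 ± 1.67 in control wounds (SD, n = 5 each). The difference was -0.52 (SE 0.73), with an interval of -2.15 to 1.10 (limma, adjusted p = 0.868).

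Clec4e and Trem1 signal through the adaptors Fcer1g and Tyrobp to the kinase Syk and on to Card9, Bcl10 and Malt1, while Csf3r signals through Jak kinases to Stat3 and its inhibitor Socs3. Of 13 tested signalling partners, 13 averaged lower in miR-132 wounds, against 53.6% of all genes and 63.6% of those with a mean above 5.66. Their median difference was -0.24, with 0 at an adjusted p under 0.05. At an unadjusted p under 0.05, which 8.09% of all genes reached, there were 4: Stat3, Bcl10, Socs3 and Syk. Stat3 averaged 9.02 ± 0.46 in miR-132 wounds and 9.67 ± 0.27 in control wounds (SD, n = 5 each; difference -0.66, limma adjusted p = 0.596). Socs3 averaged 5.39 ± 0.21 in miR-132 wounds and 5.80 ± 0.35 in control wounds (difference -0.41, limma adjusted p = 0.596). Bcl10 differed by -0.20 and Syk by -0.43. The adaptors showed smaller differences relative to their error, -0.37 (SE 0.31) for Fcer1g and -0.12 (SE 0.37) for Tyrobp. These genes are expressed in many cells of skin besides neutrophils.

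Hdc encodes histidine decarboxylase, the enzyme that makes histamine in mast cells, basophils and neutrophils. Its signal was 7.84, 8.41, 8.58, 8.8 and 8.82 in miR-132 wounds, against 7.05, 9.77, 9.32, 10.3 and 10.37 in control wounds. Control replicates 2 to 5 lay above every miR-132 value, and control replicate 1 lay below all of them. The means were 8.49 ± 0.40 in miR-132 wounds and 9.36 ± 1.36 in control wounds (SD, n = 5 each), 1.83-fold lower with miR-132. The difference of -0.87 (SE 0.58) had an interval of -2.17 to 0.42 (limma, adjusted p = 0.713).

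Mast cells could also supply Hdc. The mean of the mast cell markers without Hdc ranged from 5.96 to 6.83 in miR-132 wounds and from 5.94 to 6.67 in control wounds. Cpa3, the mast cell carboxypeptidase, averaged 10.50 ± 0.99 in miR-132 wounds and 10.05 ± 0.87 in control wounds (SD, n = 5 each; difference 0.45, limma adjusted p = 0.842). Over the 10 arrays Hdc had Pearson r between -0.17 and 0.50 with the 9 other mast cell markers tested. With the 7 other neutrophil genes taken singly, r was 0.40 to 0.89. It was 0.91 with the mean of these 7, which is less noisy than a single gene. The mast cell markers Tpsab1, Ms4a2, Gata2 and Fcer1a had group means of 4.17 to 4.56, near the level filter, which can lower their r. The basophil markers Mcpt8 and Prss34 were below the level tested.

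Retnlg encodes a resistin-like protein secreted by neutrophils and bone marrow cells. It measured 7.5, 7.03, 6.97, 7.93 and 8.08 in miR-132 wounds, against 5.36, 8.04, 7.33, 9.24 and 9.14 in control wounds. The low value of control replicate 1 and the high values of replicates 4 and 5 gave the controls a 14.7-fold range, around the 2.16-fold range of the miR-132 wounds. The means were 7.502 ± 0.51 in miR-132 wounds and 7.82 ± 1.59 in control wounds (SD, n = 5 each). The difference was -0.32 (SE 0.68), with an interval of -1.83 to 1.19 (limma, adjusted p = 0.925). Its relatives Retn, made by mouse fat cells, and Retnla, made by alternatively activated macrophages, averaged higher with miR-132, by 1.77 (SE 1.24) and 0.67 (SE 0.52), and neither passed the test (limma, adjusted p = 0.724 and 0.753).

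Stfa1 encodes a stefin A, an inhibitor of cysteine proteases such as cathepsins. It was at the upper limit of 19.93 on miR-132 replicates 1, 3 and 4 and on all 5 control arrays. Only miR-132 replicates 2 and 5 gave values under the limit, 18.19 and 19.19. The fitted difference of -0.50 (SE 0.31; limma, adjusted p = 0.692) thus rests on those 2 arrays, which also had the narrowest signal ranges, and bounds the difference poorly. With both left out it was 0.00. Stefin A genes are near-identical copies, so a feature may pick up RNA of several of them. Of 9 other tested stefin A genes, 9 averaged lower with miR-132, against 53.6% of all genes and 63.6% of those with a mean above 5.66. Their median was -0.59, with 0 at an unadjusted p under 0.05. As near-identical copies they are not 9 separate readings. One of them, Stfa3, was at the limit on 7 arrays, and without it the median was -0.49. The mean of the other 8 per array ranged from 10.68 to 13.04 in miR-132 wounds and from 12.23 to 13.02 in control wounds. For 0 of the 9 was the SD larger in control wounds. Cstdc6 (difference -0.70) read 19.02 on every control array and Cstdc5 read 11.69 to 11.7. Each had a control SD of 0.0, for a reason that was not tested, and both stay in these counts. Csta3, for example, averaged 16.99 ± 1.66 in miR-132 wounds and 17.93 ± 0.36 in control wounds (SD, n = 5 each; limma, adjusted p = 0.738). Skin keratinocytes also make stefin A proteins.

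Ly6g encodes the surface protein by which mouse neutrophils are usually identified in flow cytometry. Its array signal was weak: 4.81, 4.09, 4.26, 4.87 and 4.56 in miR-132 wounds, against 4.26, 4.5, 4.89, 5.11 and 4.43 in control wounds. The groups covered nearly the same range. The difference of means was -0.12 (SE 0.20; interval -0.57 to 0.33; limma, adjusted p = 0.898). Close relatives in the Ly6 locus could contribute to this feature, and among 6 tested ones 1 averaged lower and 5 higher with miR-132. Ly6i differed by 0.21, Ly6d by -0.75 and Ly6c1 by 0.23 (limma, adjusted p = 0.629, 0.671 and 0.881).

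Ngp encodes neutrophilic granule protein, made by maturing neutrophils in the marrow. Its values, 3.27, 3.89, 3.33, 3.26 and 3.49 in miR-132 wounds and 3.35, 3.73, 3.32, 3.53 and 3.37 in control wounds, were too low to be tested. The group means, 3.45 and 3.46, were within the spread of either group.

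**Figure D2:**
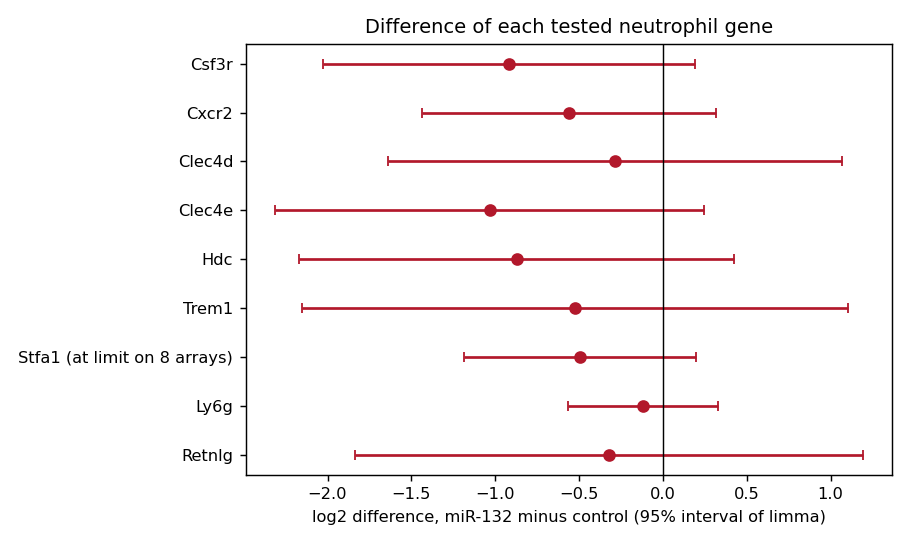
Difference in mean log2 signal, miR-132 minus control (x axis), of the 9 tested neutrophil genes (y axis), with limma's 95% interval. All 9 points lie left of 0 and all 9 intervals include 0.

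The wide intervals reflect the spread between mice. For 7 of the genes the pooled within-group SD exceeded that of at least 94.2% of all tested genes, with Trem1 highest at 99.3%. Among the 8 genes that were tested and never at the upper limit, the mean per array was 7.91, 7.51, 7.90, 8.33 and 8.62 in miR-132 wounds, against 6.96, 8.78, 8.43, 9.76 and 9.23 in control wounds. The group means of these 8 genes were 8.05 ± 0.43 in miR-132 wounds and 8.63 ± 1.06 in control wounds (SD, n = 5 each), a difference of -0.58. The control group contained both extremes. Ranked over the 10 arrays from lowest to highest, control replicate 4 had a mean rank of 9.5 and control replicate 1 one of 1.75. Without control replicate 1 the difference of the mean was -0.997 and without control replicate 4 it was -0.297. With both left out, a setting chosen after their values were seen, it was -0.76. Without control replicate 1, Csf3r, Clec4e, Hdc and Trem1 had unadjusted p under 0.05, as did 6% of all genes in that fit, and their adjusted p was 0.802 (limma). Without control replicate 4 the differences of Clec4d and Retnlg turned to 0.018 and 0.034.

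The SD was larger in control wounds for 8 of these 8 genes, against 31.1% of all tested genes. This comparison of spread was made after the values were seen, and no test was run on it. The SD of control wounds over that of miR-132 wounds was 3.40 for Hdc, 3.14 for Retnlg, 2.76 for Csf3r, 2.66 for Trem1 and 2.65 for Clec4e, but 1.15 for Cxcr2, 1.09 for Clec4d and 1.03 for Ly6g. Without control replicate 1 the count was 5 of 8, and without control replicate 4 it was also 5 of 8.

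Most of the neutrophil genes varied together from mouse to mouse. Of the 45 pairs among the 10 genes, 17 passed a permutation test of Pearson's r with 100000 resamples at a Benjamini-Hochberg adjusted p under 0.05, and 14 of these also passed with Spearman's rho. The 28 pairs of the 8 genes that were tested and below the limit had r from 0.35 to 0.91, with a median of 0.73. Without Ly6g, 21 pairs remained, with r from 0.52 to 0.91. Values centred on each group's mean, which removes the treatment difference, gave 0.48 to 0.93 for these 21 pairs. Leaving out the 2 arrays farthest from the median of the first gene of each pair gave 0.33 to 0.92, with a median of 0.62, so part of the relation rested on the extreme arrays. All genes came from the same RNA of each mouse, so pairs are not independent of one another. How often pairs of other genes with a similarly wide spread would pass was not computed, so the count is not shown to be particular to this set.

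The closest pair was Trem1 and Retnlg, with r = 0.91 and rho = 0.89 over 10 arrays (permutation p = 0.00052, adjusted p = 0.0099 over 45 pairs), and r = 0.75 without control replicates 1 and 5. Hdc and Retnlg followed with r = 0.89 and rho = 0.82 (permutation p = 0.00066, adjusted p = 0.0099), and r = 0.73 without the same arrays. Clec4e and Hdc had r = 0.88 and rho = 0.92 (permutation p = 0.00088, adjusted p = 0.0099), and r = 0.84 without control replicates 1 and 4. The neighbouring lectins Clec4d and Clec4e had r = 0.85 and rho = 0.92 (permutation p = 0.00149, adjusted p = 0.0134), and r = 0.92 without miR-132 replicate 5 and control replicate 1. The receptors Csf3r and Cxcr2 had r = 0.84 but rho = 0.73, which missed the threshold (permutation adjusted p = 0.0573 for rho), and r = 0.58 without control replicates 4 and 5. Stfa1 and Ngp were in 0 of the pairs that passed, as was Ly6g. These are the gene at the upper limit and the 2 dimmest genes.

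**Figure D3:**
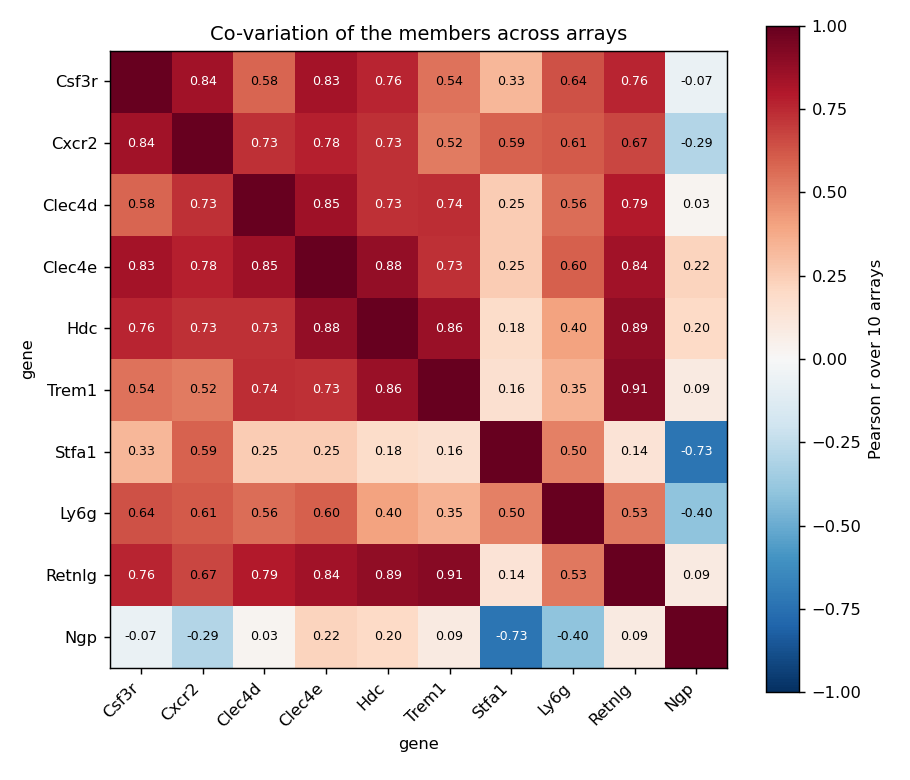
Pearson's r over the 10 arrays for each pair of the 10 neutrophil genes (both axes), from -1 in blue to 1 in red. The block from Csf3r to Trem1 with Retnlg holds values from 0.52 to 0.91, whereas the rows of Stfa1 and Ngp hold none above 0.59.

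The genes of the 3 closest pairs, Clec4e, Hdc, Trem1 and Retnlg, are shown with the 250 bases before the first transcription start that the table lists for each, since genes that vary together may be compared in their upstream sequence. For Hdc and Trem1 that start lies inside the annotated gene, and other starts were not examined. Sequences are from RefSeq (GRCm38.p6), in the direction of the gene, at chr6:123289872-123290121 (minus strand), chr2:126618679-126618928 (minus strand), chr17:48232489-48232738 (plus strand) and chr16:48872358-48872607 (plus strand). Capitals mark matches, on either strand, to 4 motifs of factors known from myeloid cells: TTGCNNAA for C/EBP, GAGGAA for PU.1, TTCNNNGAA for STAT and, for NF-kB, GGGA followed by 4 bases of any kind and CC.
Clec4e: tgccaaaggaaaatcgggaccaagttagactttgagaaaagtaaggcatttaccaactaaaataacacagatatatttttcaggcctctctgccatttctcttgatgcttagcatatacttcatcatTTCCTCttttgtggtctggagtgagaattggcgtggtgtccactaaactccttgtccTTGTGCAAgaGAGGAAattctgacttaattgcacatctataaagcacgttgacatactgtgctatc
Hdc: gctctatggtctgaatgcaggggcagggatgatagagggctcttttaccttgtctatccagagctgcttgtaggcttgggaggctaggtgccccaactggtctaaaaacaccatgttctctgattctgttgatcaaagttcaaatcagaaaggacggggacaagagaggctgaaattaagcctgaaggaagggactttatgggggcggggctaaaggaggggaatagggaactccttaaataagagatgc
Trem1: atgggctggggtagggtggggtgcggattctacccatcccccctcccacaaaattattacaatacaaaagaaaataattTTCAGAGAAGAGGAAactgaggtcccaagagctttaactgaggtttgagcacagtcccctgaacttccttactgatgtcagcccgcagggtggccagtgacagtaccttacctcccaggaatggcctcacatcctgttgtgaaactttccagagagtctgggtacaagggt
Retnlg: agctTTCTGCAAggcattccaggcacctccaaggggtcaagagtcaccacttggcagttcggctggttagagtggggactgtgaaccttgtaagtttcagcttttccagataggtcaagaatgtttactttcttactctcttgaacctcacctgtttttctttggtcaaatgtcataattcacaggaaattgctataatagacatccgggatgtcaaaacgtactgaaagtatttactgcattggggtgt

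Clec4e held 1 C/EBP and 2 PU.1 matches, Trem1 a STAT match directly followed by a PU.1 match, Retnlg 1 C/EBP match and Hdc 0 matches to the 4 motifs. The C/EBP motif was found in 5 of the 10 neutrophil genes and in 9.55% of all 27025 upstream sequences of this length. The PU.1 motif was found in 7 of the 10, against 23.1% of all, the NF-kB motif in 3 of the 10, against 17.3%, and the STAT motif in 1 of the 10, against 7.18%. PU.1 letters can lie within an NF-kB match, as in Ly6g. The motifs were chosen after the values were seen, a match is a description of the sequence, and no test was made.

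Among other genes, those most like the neutrophil genes were sought by Pearson's r over the 10 arrays with the mean of the 9 neutrophil genes that never reached the limit. Of 2158 genes with an SD of at least 0.5, 6 had r over 0.9. The highest were Mrgpra2a (r = 0.967), a Mas-related receptor, Arg2 (r = 0.963), a mitochondrial arginase, the long noncoding RNA Mirt2 (r = 0.939), the receptor Mrgpra2b (r = 0.919), Entpd1 (r = 0.918), which encodes the nucleotidase CD39, and Mcemp1 (r = 0.903). Cd300lf, Trim30b, Tarm1 and Sorl1 followed at 0.892 to 0.899. All 10 averaged lower with miR-132, by between -0.12 for Trim30b and -1.16 for Mrgpra2a, and 0 passed the test (limma, adjusted p from 0.641 to 0.948). These genes were selected for following the neutrophil genes, so their direction adds nothing to the comparison. Mrgpra2a and Mrgpra2b are close copies, so their features may share RNA.

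Further genes known from neutrophils, not chosen to be absent from other cells, were read from lists that leave out the 10. Of 25 other surface receptors above the level filter, 20 averaged lower and 5 higher in miR-132 wounds, with a median of -0.43. The receptor for leukotriene B4, Ltb4r1, averaged 5.97 ± 0.69 in miR-132 wounds and 6.81 ± 0.37 in control wounds (SD, n = 5 each; difference -0.84, unadjusted p = 0.0259 and adjusted p = 0.596 with limma). The selectin ligand Selplg differed by -0.49 and the receptor of platelet-activating factor, Ptafr, by -0.51. Of 25 genes of mature and activated neutrophils that were never at the upper limit, 19 averaged lower and 6 higher, with a median of -0.18. Acod1, the enzyme that makes itaconate, averaged 9.58 ± 0.66 in miR-132 wounds and 11.28 ± 1.59 in control wounds (SD, n = 5 each; difference -1.70, limma adjusted p = 0.596). The transcriptional regulator Mxd1 differed by -1.14 and the mitochondrial superoxide dismutase Sod2 by -0.45. S100a8 and S100a9, the most abundant proteins of neutrophil cytosol, were at the upper limit on 9 arrays each and are left out of these counts.

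Granule genes mostly averaged lower in one list, while the few tested genes of the other averaged higher by small amounts. Of 13 tested genes of specific and gelatinase granules, 10 averaged lower and 3 higher, with a median of -0.30. Mmp9, gelatinase B, which keratinocytes and macrophages also make, averaged 8.81 ± 1.08 in miR-132 wounds and 10.14 ± 0.70 in control wounds (SD, n = 5 each; difference -1.34, unadjusted p = 0.0308 and adjusted p = 0.596 with limma). The membrane protease Adam8 differed by -0.69 and Pglyrp1, a peptidoglycan-binding granule protein, by -0.30. The neutrophil collagenase Mmp8 averaged 5.70 ± 0.31 in miR-132 wounds and 6.24 ± 1.29 in control wounds (difference -0.54, limma adjusted p = 0.799). Camp and Cd177 were near the level filter in both groups, Camp at 4.51 with miR-132 and 4.42 in controls, and Cd177 at 4.36 with miR-132 and 4.38 in controls. The 3 tested genes of the azurophil list averaged higher, with a median of 0.11. The differences were 0.114 (SE 0.08) for Ctsg, 0.048 (SE 0.104) for Cd63 and 0.116 (SE 0.356) for Serpinb1a. Ctsg, at 4.31 with miR-132 and 4.19 in controls, was also near the level filter. Of 7 granulocyte transcription factors, 5 averaged lower, 1 higher and 1 equal, with a median of -0.22, Cebpb at -0.36, Cebpa at -0.46 and Runx1 at -0.25. In these lists 0 genes passed the test at an adjusted p under 0.05, and those under an unadjusted 0.05 numbered 2 receptors, 2 genes of mature neutrophils, 2 genes of specific and gelatinase granules, 1 transcription factor and 0 azurophil genes. Over all genes 8.09% were under an unadjusted 0.05 and 53.6% averaged lower, as did 63.6% of those with a mean above 5.66. The counts of 2 among 25 receptors and 2 among 25 mature neutrophil genes are thus near the background of 8.09%.

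**Figure D4:**
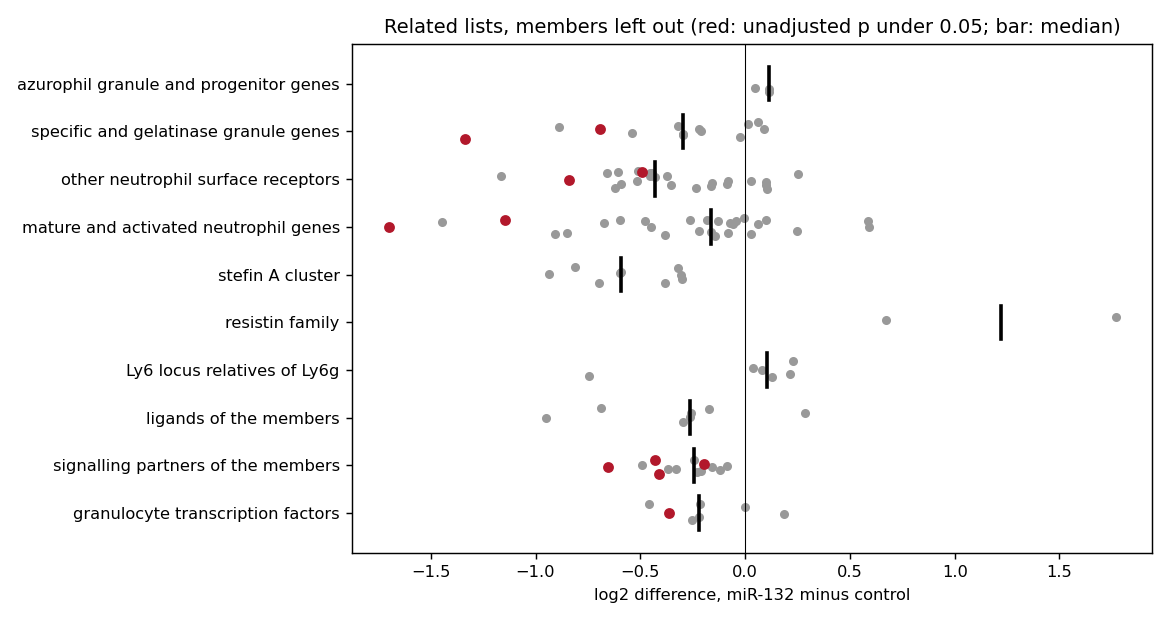
Difference in mean log2 signal, miR-132 minus control (x axis), of each tested gene in 10 related lists (y axis), with the 10 neutrophil genes left out. Points in red had an unadjusted limma p under 0.05, and black bars are list medians, from -0.59 for the stefin A cluster to 1.22 for the 2 resistin genes.

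Markers of other cell types were read on the same arrays. Macrophages and monocytes can express Clec4d, Clec4e and Trem1. Of 16 macrophage and monocyte markers, 6 averaged lower and 10 higher in miR-132 wounds, with a median of 0.16, and 0 had an unadjusted p under 0.05. Their mean per array ranged from 10.02 to 11.11 in miR-132 wounds and from 9.63 to 10.69 in control wounds. It had r = -0.10 with the mean of the 8 neutrophil genes, whereas the means of the other neutrophil receptors and of the mature neutrophil genes had r = 0.90 and r = 0.91. Those neutrophil lists were not restricted to genes absent from monocytes, so the contrast does not separate neutrophils from monocytes. Between Clec4d, Clec4e or Trem1 and single macrophage markers, or Hdc and mast cell markers, 0 of 57 relations passed (permutation test of r, smallest adjusted p = 0.975), a comparison chosen after the values were seen. Wound-activated keratinocyte markers also averaged lower with miR-132, 8 of 8 that were never at the upper limit, with 6 at an unadjusted p under 0.05 and a median of -1.31, beside 53.6% lower and 8.09% under 0.05 over all genes. Their mean per array ranged from 11.03 to 13.66 in miR-132 wounds and from 12.66 to 13.67 in control wounds, with r = 0.39 to the mean of the 8 neutrophil genes. Of 8 basal keratinocyte markers never at the limit, 8 averaged lower, with a median of -0.37. Among genes with a mean above 5.66, 63.6% averaged lower. The part of these other cells in the differences of the neutrophil genes was not tested.

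**Figure D5:**
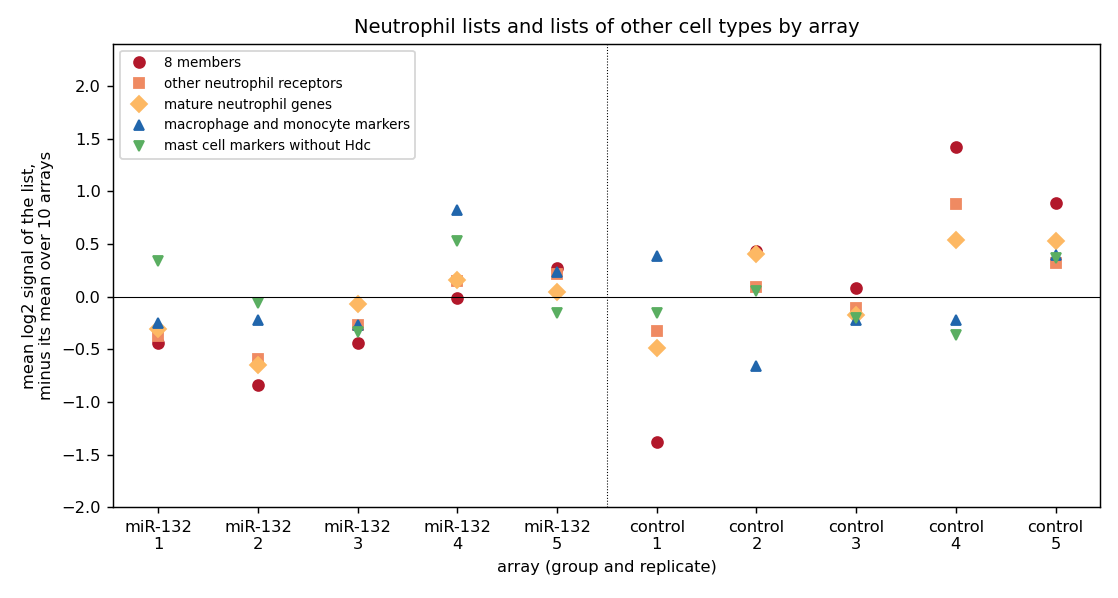
Mean log2 signal of each list on each array, minus its mean over all 10 arrays (y axis), for miR-132 replicates 1 to 5 and then control replicates 1 to 5 (x axis). The 8 neutrophil genes (red), other neutrophil receptors and mature neutrophil genes are all low on miR-132 replicate 2 and control replicate 1 and high on control replicates 4 and 5. Macrophage and mast cell markers lie below their mean on control replicate 4 and miR-132 replicate 2, and above it on control replicate 5. On control replicate 1 macrophage markers lie above and mast cell markers below.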

How the data were processed

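RNA of wound-edge skin from 10 mice was measured on Affymetrix Clariom D arrays, 5 per group. The authors' values came from RMA in Affymetrix Expression Console 1.4, per the submitters' processing notes. The deposited values were read as log2 signals because of their range and their common ceiling of 19.93, since the labels leave the scale open. No genome build is given in these sources.

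Of 72688 features, the platform annotation named 31261 with 1 gene, 1489 with several and 39938 with none. Several names of 1 gene were merged (657 features) and 844 symbols updated through the reference gene table of GRCm38.p6, a rule revised after a first fit that also called 0 genes. The brightest one-gene feature per gene was kept. The 17657 genes with a mean above 4.17, the median of all features, were tested on all arrays with limma 3.58.1 in R 4.3.3 (lmFit, eBayes with an intensity trend, no covariates, two-sided) and Benjamini-Hochberg adjustment at 0.05. Correlations were tested with 100000 permutations, two-sided, in NumPy 2.4.6, with the ranks for rho from SciPy 1.17.1. Scripts were checked on simulated data. The number of arrays limits the precision.

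The members and lists were chosen with earlier results of these data known. From each function list the 3 genes with the smallest unadjusted p were named, and from all genes the 10 most like the members in r. Camp, Cd177, Mmp8, Lyz2, Cstdc5, Syk, Fcer1g, Tyrobp, Cpa3, Tpsab1, Ms4a2, Gata2 and Fcer1a were named after their values were seen. The alternatives were 2 other scalings, 2 other level filters, 2 variance models, a spike-in covariate, the replicate number as a block, the mean of all features of a gene, and arrays left out. Labelled replicate numbers were not treated as pairs in the main fit.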

Additional observations from a re-analysis of the deposited data

How the results depend on the processing

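Under 21 alternatives, 0 of the neutrophil genes were called (lowest adjusted p per alternative from 0.437 to 1.0, limma), and 1 of these alternatives, control replicates 1 and 4 left out together, was chosen after seeing the data. Over all genes the count was 0 except without miR-132 replicate 3, where it was 52. Leaving out 1 array at a time gave 0 to 0 called neutrophil genes. The difference of the 8-gene mean ranged from -0.997 to -0.297 under the same single omissions, and was -0.815 with the spike-in covariate, -0.638 with median centring and -0.494 with quantile normalization. The median r of the gene pairs ranged from 0.649 to 0.767 over single omissions. Clec4d ranged from -0.712 to 0.018 and Retnlg from -0.936 to 0.034 over the same omissions. Of 189 differences of single genes, 6 turned, Stfa1 was 0.00 without miR-132 replicates 2 and 5, and the others kept their direction. Clec4d was 0.012 with array weights, 0.018 without control replicate 4 and 0.01 without miR-132 replicate 2. Retnlg was 0.034 without control replicate 4 and 0.01 without control replicate 5. Ly6g was 0.009 without miR-132 replicates 2 and 5. The cause was not tested. With the spike-in covariate Clec4d was -1.047, and the spike-in level itself averaged higher in miR-132 wounds, so the covariate and the treatment are partly confounded. Same-numbered mice of the 2 groups had correlations of their deviations between -0.03 and 0.164, and 2 of 5 correlated best with their own number. Such correlations cannot exclude that the numbers pair the mice, which the labels do not state. With the replicate number as a block the members' lowest adjusted p was 0.661, 0 were called, and 1274 genes (7.22%) had an unadjusted p under 0.05. Csf3r was 1 of these (limma, unadjusted p = 0.0225). Stfa1 had an unadjusted p of 0.0474 with the spike-in covariate (limma), as 9.25% of all genes were under 0.05 there. Without control replicates 1 and 4, Clec4e, Hdc and Trem1 were under an unadjusted 0.05, beside 4.22% of all genes. Signals at the upper limit (Stfa1, S100a8, S100a9) and near the level filter (Ly6g, Ngp) bound what these arrays can show.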
